A study of Bos taurus with 8 samples.

Results

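The genes described here encode the enzymes that build and break down triglyceride. The builders are GPAM, AGPAT1, AGPAT2, LPIN1, LPIN2, DGAT1 and DGAT2, and the lipases are PNPLA2, LIPE and MGLL. Members were found as every expression probe whose symbol in the platform annotation is one of these 10 names. All 10, of 15229 genes named on the array, had a probe, which gave 16 probes of 43794, 11 for synthesis and 5 for lipolysis. Of the 16, 13 probes of 9 genes gave enough signal to be tested, among 33420 such probes of 12964 named genes. LIPE did not.

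The samples were pools of 10 Holstein blastocysts produced in vitro, from maturation and fertilization through culture, and collected 170 hours after fertilization. In the lipid group, lipids extracted from serum were in the culture medium from the 8 to 16 cell stage on day 3 until the blastocyst stage on day 7. The control group received no lipids and shared the culture up to day 3. Each of 4 lipid pools was hybridised against a control pool on 2 two-colour arrays with the dyes exchanged, 1 on slide 87 and 1 on slide 88. Nothing in the labels ties the pools to separate fertilization runs, so the p-values measure the spread between these pools, which may be partly technical. A pool holds whole embryos, and for a pool, fewer cells of a type and less RNA per cell cannot be told apart.

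Triglyceride is made from glycerol 3-phosphate by adding fatty acyl chains in turn: GPAM adds the first, the AGPAT enzymes the next, the lipins remove the phosphate, and the DGAT enzymes attach the last chain. The product is stored in lipid droplets, and PNPLA2, LIPE and MGLL remove the chains again in that order, which frees fatty acids for oxidation and for membranes. Bovine oocytes and embryos are known for their rich store of droplets, and droplets grow further in embryos cultured with serum. The comparison asks how serum lipids alter the transcripts of the blastocyst.

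Detection was judged on each array and channel against a limit set 2 SD over the average of the 153 negative control spots. PNPLA2, the lipase that opens triglyceride hydrolysis, was above this limit in both channels of all 8 arrays with its probe EMBV3_20061, at 5.34 to 16.7 times the limit in the lipid channel and 5.45 to 14.8 times in the control channel. DGAT2 (EMBV3_02429) was above the limit throughout as well, at 1.68 to 4.54 times the limit with lipid and 2.46 to 4.16 times in control. Signal above the limit in both channels of all 8 arrays was also measured for DGAT1 and for the GPAM probes EMBV3_07840 and EMBV3_43206, so 5 of the 16 probes met this mark. These 5 are probes of GPAM, DGAT1, DGAT2 and PNPLA2. The share of all probes meeting the mark was not counted, so it is not read as a trait of these genes. By a looser rule, 1 channel or both above the limit on all 8 arrays, 24768 of all 43794 probes passed.

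The remaining synthesis probes missed the limit in 1 or more channels. AGPAT1 passed on 8 lipid and 7 control channels, LPIN1 likewise on 8 and 7, and AGPAT2 and DGAT2 EMBV3_40270 on 7 and 8. AGPAT2 ranged widely, at 0.922 to 3.01 times the limit with lipid and 1.14 to 2.66 times in control. The lipin probe EMBV3_07333 of LPIN2 passed on 6 lipid and 5 control channels, and EMBV3_40813 on 5 of each. GPAM EMBV3_16039 passed on 5 lipid and 4 control channels, with medians of 1.05 and 1.005 times the limit.

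Among the lipases, LIPE (hormone-sensitive lipase, which acts mainly on diacylglycerol) was not well above background on any array, with 0 of 8 lipid and 0 of 8 control channels past the limit. Its signal was 0.549 to 0.870 times the limit in the lipid channel and 0.542 to 0.885 times in the control channel. MGLL, the monoacylglycerol lipase, passed with EMBV3_26024 on 2 lipid and 6 control channels, and both lipid channels were those of pool pair 1. The other PNPLA2 probe, EMBV3_25210, passed on 0 lipid and 1 control channel, and the other MGLL probe, EMBV3_26309, on 2 and 1. These last 3 probes, LIPE's included, are given no ratio.

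**Figure D1:**
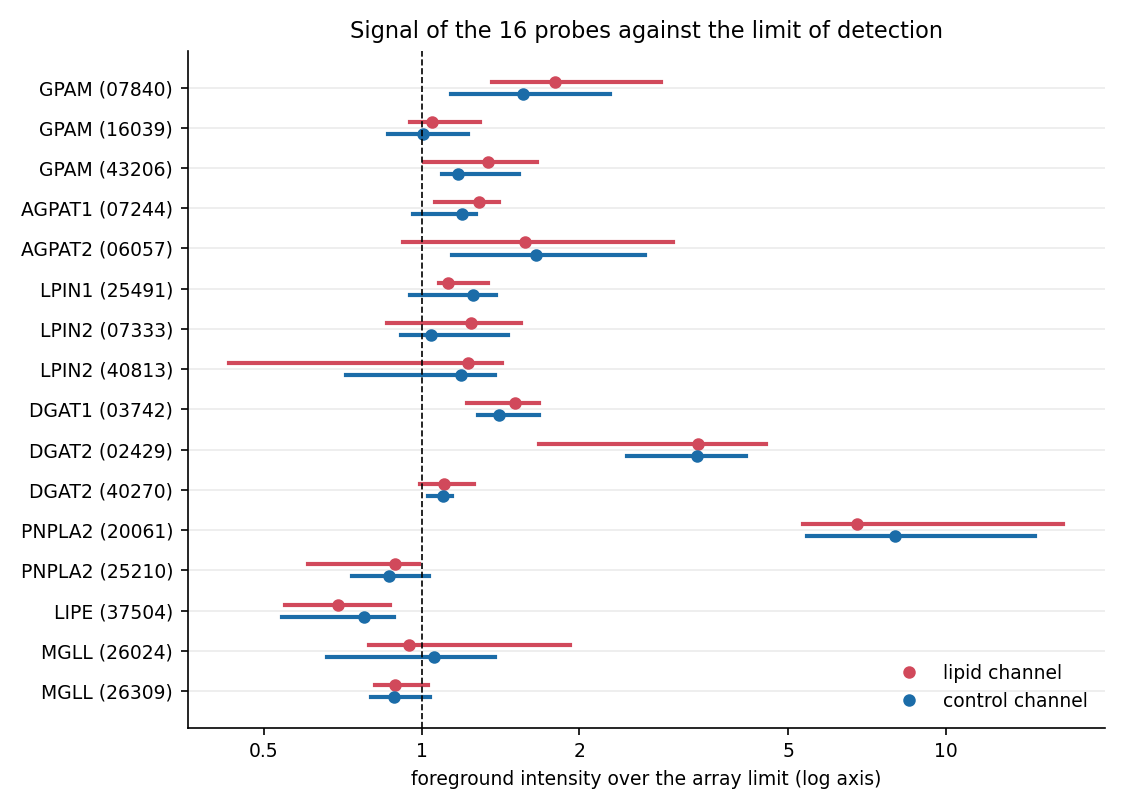
Foreground intensity divided by the detection limit of its array and channel (log axis) for the 16 probes, with the lipid channel above the control channel. Dots are medians and bars the range over 8 arrays, and the dashed line is the limit, which PNPLA2 EMBV3_20061 passes by 5.34 times or more and LIPE on no array.

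The pools are read first for what else they hold, since this may bear on the ratios. The trophectoderm markers, 9 of 9, and the inner cell mass markers, 7 of 7, were all measured in these blastocysts. So were 3 of the 4 primitive endoderm markers, GATA6 having no matched probe, and of these SOX17 passed the limit on 4 lipid and 2 control channels. Measured means that a probe gave enough signal to be tested, as for 12964 of all 15229 named genes. It does not by itself identify a cell type. Cumulus and granulosa cells nurse the oocyte in its follicle, and 13 of their 16 markers were measured with 11 of the 13 at a mean ratio above 0. Their summed normalized intensity was 7693, 42219, 12127 and 8027 in lipid pools 1 to 4, against 7670, 10377, 16459 and 7085 in control pools 1 to 4. Lipid pool 2 thus stood far above the other 7 pools, and the median log2 ratio of the markers was 0.97 in that pool pair, against -0.00, -0.03 and 0.13 in pool pairs 1, 3 and 4. The markers furthest above 0 there were LUM (3.70), VIM (2.96) and COL3A1 (2.52), which stromal cells of many tissues also express, while STAR and INHBA, of steroid and inhibin synthesis, had 1.34 and 1.505. CYP19A1, HAS2 and FSHR had -0.24, -0.18 and 0.02, and TNFAIP6, AMH and FOXL2 did not pass the filter. Other probes of STAR averaged -0.05 and 0.28 over the 4 pool pairs, against 0.52 for the probe given here. Those of CYP19A1 averaged -0.07 and -0.60, against -0.23. The part of the cumulus and granulosa signal in the ratios of the lipid enzymes was not tested, and member means without pool pair 2 are given with the results.

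Markers of fat cells (5 of 5 measured, 4 above 0) summed to 657 to 752 in the lipid pools and 634 to 745 in the control pools. These markers were near the detection limit. ADIPOQ passed it on 3 lipid and 2 control channels, FABP4 on 4 and 3, CIDEC on 5 and 5, LEP on 6 and 7 and PLIN1 on 7 and 6. Their sum thus holds much background and could hide a difference. For sperm (4 of 5 measured, 2 above 0, ODF1 not) the sums were 648 to 869 with lipid and 871 to 1031 in control. For blood cells (5 of 5 measured, 3 above 0) they were 927 to 1050 with lipid and 850 to 1058 in control. The lipid and control pools overlapped in the fat and blood sums. In the sperm sum every lipid pool was below every control pool, by a narrow margin (869 against 871). How often such sums separate by group was not counted. The protamine PRM1 was the marker below 0 in all 4 pool pairs, with ratios of -0.71, -0.92, -0.98 and -0.55. Its mean was -0.79 ± 0.09 (limma adjusted p = 0.999997, unadjusted p = 0.000286). The same sign in all 4 pool pairs was found for 11.2% of all tested probes. PRM2 and AKAP4 had means of 0.10 and 0.14, and passed the limit on 4 lipid and 2 control channels and on 3 and 1. The part of PRM1 in the members' ratios was not tested.

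No enzyme of triglyceride synthesis or breakdown passed the threshold between lipid and control blastocysts. In the limma fit with Benjamini-Hochberg adjustment over all 33420 probes, 0 of the 13 member probes had an adjusted p under 0.05, as for 0% of all probes. At an unadjusted p under 0.05 there was 1 member probe of 13, that of AGPAT1, against 4.37% of all probes (686 higher and 775 lower with lipid). With the 8 arrays taken as independent 7 probes on the whole array passed, none of them a member. The same sign in all 4 pool pairs was found for 2 of the 13, AGPAT1 and GPAM EMBV3_43206, both above 0, against 11.2% of all probes. Single arrays were less uniform. GPAM EMBV3_43206 had 0.24 on slide 87 and -0.21 on slide 88 in pool pair 1, and AGPAT1 kept its sign on both arrays in 1 pool pair only. With 13 probes these counts do not stand apart from the background, and the standard errors of the means were 0.06 to 0.27 (log2).

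**Figure D2:**
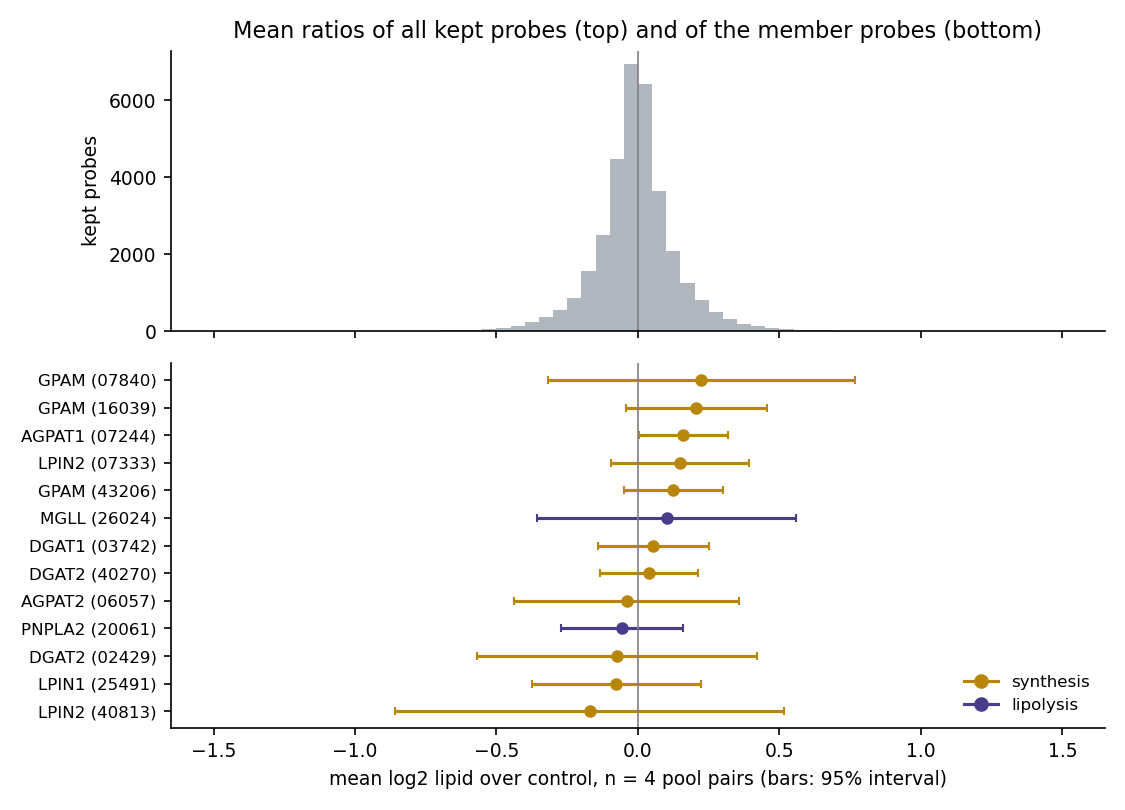
Mean log2 lipid over control over 4 pool pairs: above, the number of tested probes per bin of 0.05, with values past 1.5 in either direction placed in the outermost bins; below, each member probe with its 95% interval from limma, synthesis and lipolysis in different colours. The member means lie between -0.17 and 0.22, and the interval of AGPAT1 alone starts above 0.

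GPAM, the mitochondrial enzyme that commits glycerol 3-phosphate to lipid, had mean ratios above 0 with each of its 3 probes. The normalized log2 intensity of EMBV3_07840 was 8.16, 7.86, 8.88 and 8.27 in lipid pools 1 to 4, against 7.51, 7.94, 8.17 and 8.66 in control pools 1 to 4. The groups overlapped: lipid was above control in pool pairs 1 and 3 and below it in pool pairs 2 and 4. Its log2 ratios were 0.65, -0.08, 0.72 and -0.39, with a mean of 0.22 ± 0.21 (SE, n = 4 pool pairs; limma adjusted p = 0.999997, unadjusted p = 0.343). Both arrays of every pool pair had the same sign, so the opposite signs between pool pairs repeated with the dyes exchanged. The mean rested on single pool pairs: it was 0.08, 0.33, 0.06 and 0.43 without pool pairs 1, 2, 3 and 4 in turn.

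The other GPAM probes differed less between pool pairs. EMBV3_16039 had log2 ratios of 0.24, 0.14, 0.48 and -0.03, with a mean of 0.21 ± 0.10 (unadjusted p = 0.0878 in limma). EMBV3_43206 had 0.01, 0.26, 0.09 and 0.13, with a mean of 0.13 ± 0.07 (unadjusted p = 0.126 in limma). With 1 pool pair left out they were 0.12 to 0.29 and 0.08 to 0.16, and without pool pair 2 0.23 and 0.08. In pool pair 4 the 3 GPAM probes spread from -0.39 to 0.13, so the probes disagreed in sign there and in pool pair 2. The interval for EMBV3_43206 ran from 0.966 to 1.23 times the control level, and that for EMBV3_07840 from 0.802 to 1.70 times.

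AGPAT1 and AGPAT2 add the next acyl chain and form phosphatidic acid. For AGPAT1 the log2 intensity was 7.70, 7.64, 7.54 and 7.39 in lipid pools 1 to 4, against 7.54, 7.55, 7.30 and 7.25 in control pools 1 to 4. The lipid pool was the higher in each of the 4 pool pairs, although the groups overlapped across pairs. The log2 ratios were 0.17, 0.08, 0.25 and 0.15, with a mean of 0.16 ± 0.06, or 1.12 times the control level with a 95% interval of 1.002 to 1.25 times (limma unadjusted p = 0.0466, adjusted p = 0.999997). The unadjusted p under 0.05 did not persist in 13 of 17 alternatives, where it was 0.0544 to 0.292, among them each of the 4 that leave out a pool pair. Without pool pair 2 the mean was 0.19.

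This small difference was not the same in both dye orientations. On the 4 arrays with lipid in Cy5 the log2 ratios of AGPAT1 were 0.30, 0.34, 0.68 and 0.47, and on the 4 arrays with lipid in Cy3 they were 0.03, -0.18, -0.19 and -0.18. The orientations did not overlap, and 1 array of the 4 with lipid in Cy3 was above 0. The mean was 0.07 within slide 87 and 0.25 within slide 88, where the limma unadjusted p values were 0.292 and 0.0411. Non-overlapping orientations were found for 27.3% of all tested probes, and for 2 of the 13 member probes, AGPAT1 and DGAT2 EMBV3_40270.

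AGPAT2, the isoform whose loss in humans causes congenital lipodystrophy, varied more between pool pairs than between treatments. Its log2 intensity was 9.03, 8.12, 7.80 and 7.31 in lipid pools 1 to 4, against 8.80, 8.53, 7.46 and 7.64 in control pools 1 to 4. Both pools of pairs 1 and 2 were above both pools of pairs 3 and 4. Ratios (log2) were 0.24, -0.41, 0.35 and -0.33, with a mean of -0.04 ± 0.16 (limma unadjusted p = 0.807), and each sign was the same on both arrays of its pair. Without pool pair 2 the mean was 0.08.

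LPIN1 and LPIN2 are phosphatidate phosphatases, which make diacylglycerol, and lipins also act in the nucleus as coregulators of transcription. LPIN1 had a log2 intensity of 7.59, 7.35, 7.31 and 7.55 in lipid pools 1 to 4, against 7.49, 7.71, 7.10 and 7.81 in control pools 1 to 4. The groups overlapped, and the ratios were again above 0 in pool pairs 1 and 3 (0.10 and 0.21) and below 0 in pool pairs 2 and 4 (-0.36 and -0.25). The mean was -0.08 ± 0.12 (limma unadjusted p = 0.545), and 0.02 without pool pair 2.

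The 2 probes of LPIN2 went apart. EMBV3_07333 had log2 ratios of 0.17, -0.11, 0.14 and 0.39 and a mean of 0.15 ± 0.10 (limma unadjusted p = 0.181), and 0.23 without pool pair 2. EMBV3_40813 had 0.84, -0.22, -0.68 and -0.62 and a mean of -0.17 ± 0.27 (limma unadjusted p = 0.555), the widest spread of any member probe. In pool pairs 3 and 4 the first probe was above 0 and the other below 0. EMBV3_40813 was near the limit, and its lowest lipid channel was 0.430 times the limit. Its single arrays ranged from 1.29 on slide 88 array 1 to -1.12 on slide 88 array 3. Its mean was -0.51 without pool pair 1, -0.15 without pool pair 2 and -0.00 without pool pair 3.

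DGAT1 and DGAT2, enzymes of unrelated sequence, attach the last acyl chain. DGAT1 had a log2 intensity of 8.01, 7.66, 8.03 and 7.98 in lipid pools 1 to 4, against 8.02, 7.77, 7.87 and 7.80 in control pools 1 to 4. The pools overlapped, with lipid pool 2 the lowest of the 8. The log2 ratios were -0.01, -0.11, 0.16 and 0.18, with a mean of 0.05 ± 0.08 (limma unadjusted p = 0.508), which was 0.11 without pool pair 2 and 0.01 without pool pair 4. The 95% interval was 0.907 to 1.19 times the control level, which leaves a measured ratio of 1.5-fold in either direction outside. Signal was 1.22 to 1.68 times the limit with lipid and 1.28 to 1.68 times in control. That close to the limit a measured ratio may understate a change in transcript, which was not tested.

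DGAT2 EMBV3_02429 had a log2 intensity of 9.27, 9.68, 9.09 and 8.75 in lipid pools 1 to 4, against 9.68, 9.38, 8.70 and 9.34 in control pools 1 to 4. Lipid was above control in pool pairs 2 and 3 and below it in 1 and 4, each time on both arrays. This gave log2 ratios of -0.41, 0.30, 0.39 and -0.59, with a mean of -0.07 ± 0.20 (limma unadjusted p = 0.719), and -0.20 without pool pair 2. This order of signs is not that of GPAM EMBV3_07840, AGPAT2 and LPIN1. The other DGAT2 probe, EMBV3_40270, had ratios of -0.03, 0.03, 0.18 and -0.03 and a mean of 0.04 ± 0.07 (limma unadjusted p = 0.606), and 0.04 without pool pair 2 as well. Its arrays split by dye, with 0.29 to 0.52 where lipid was in Cy5 and -0.49 to -0.16 where it was in Cy3.

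**Figure D3:**
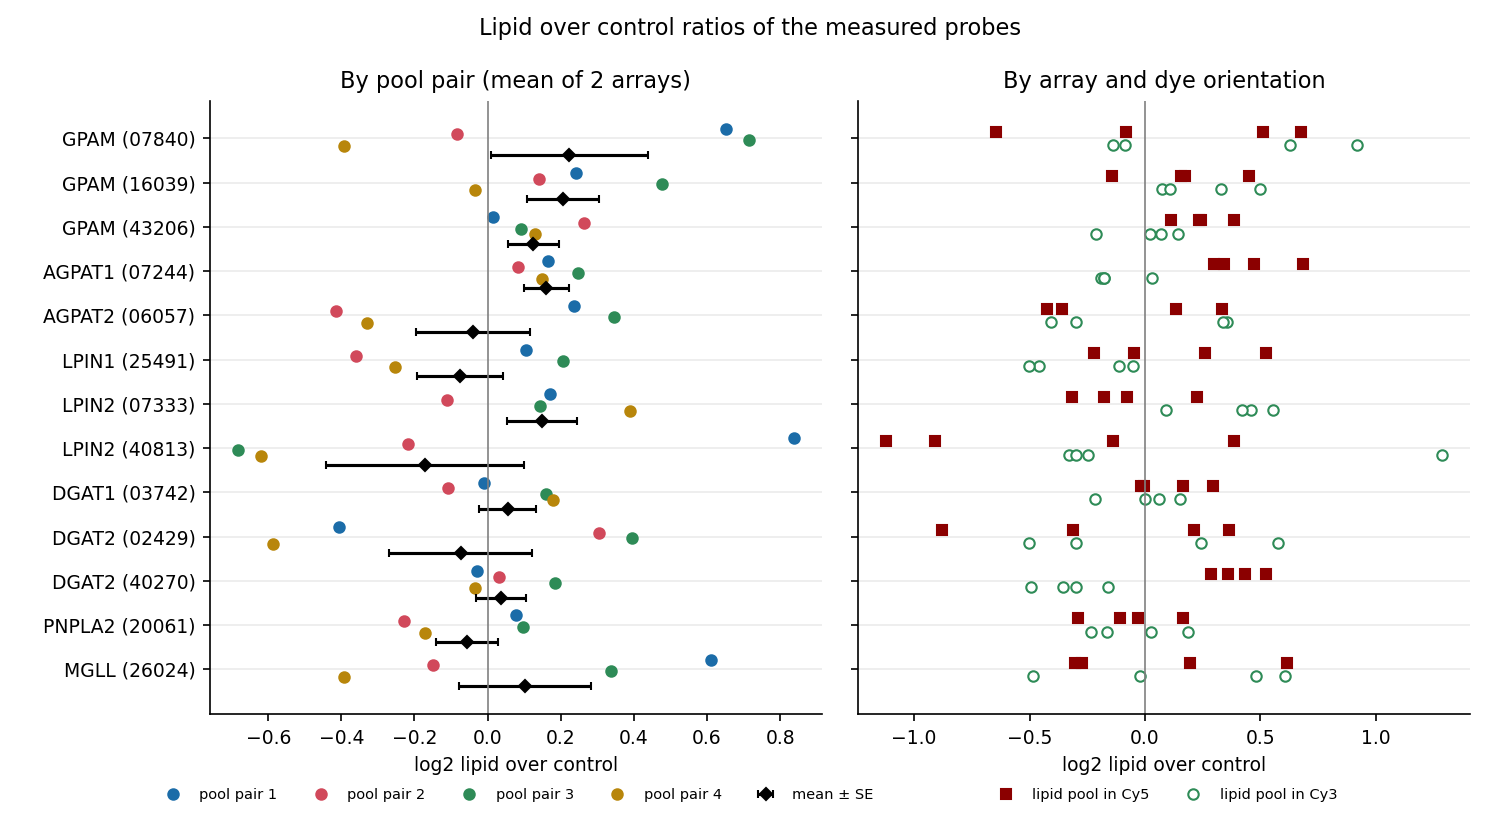
Log2 lipid over control of the 13 tested member probes. Left, the 4 pool pairs and the mean ± SE; right, the 8 arrays with lipid in Cy5 (filled squares) or in Cy3 (open circles), where AGPAT1 and DGAT2 EMBV3_40270 split by dye while AGPAT2 and MGLL keep their sign within each pool pair.

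Of the lipases, PNPLA2 showed lipid and control pools close together within each pair. Its log2 intensity was 11.61, 10.44, 10.23 and 10.44 in lipid pools 1 to 4, against 11.54, 10.67, 10.14 and 10.61 in control pools 1 to 4. Both pools of pair 1 were above the other 6 pools. The log2 ratios were 0.08, -0.23, 0.10 and -0.17, with a mean of -0.06 ± 0.08 (limma unadjusted p = 0.532), and 0.0004 without pool pair 2. The 95% interval was 0.8289 to 1.12 times the control level. With the strong signal of this probe, a change of 1.5-fold in either direction lay outside the interval.

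MGLL frees the last fatty acid from the glycerol and also breaks down the endocannabinoid 2-arachidonoylglycerol. EMBV3_26024 had a log2 intensity of 8.25, 6.90, 7.01 and 7.05 in lipid pools 1 to 4, against 7.64, 7.05, 6.67 and 7.44 in control pools 1 to 4. Lipid pool 1 was the highest of the 8 and the only lipid pool whose channels passed the detection limit. Log2 ratios of 0.61, -0.15, 0.34 and -0.39, each with the same sign on both arrays, gave a mean of 0.10 ± 0.18 (limma unadjusted p = 0.597). The mean was -0.07 without pool pair 1 and 0.19 without pool pair 2.

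AGPAT2 and PNPLA2 differed more between pool pairs than their lipid over control ratio did, and MGLL by about as much. The average of both pools had a range over the 4 pool pairs of 1.44 (log2) for AGPAT2, 1.39 for PNPLA2 and 1.11 for MGLL EMBV3_26024, or 2.71, 2.62 and 2.16 times. For these the ranges lay above those of 97.3%, 96.9% and 93.4% of all tested probes. In each of them pool pair 1 was the highest. The log2 ratio had a range of 0.32 for PNPLA2, 0.76 for AGPAT2 and 1.005 for MGLL. Between slides 87 and 88 the level of the same pool pair differed by up to 0.17 for AGPAT2, 0.55 for PNPLA2 and 0.79 for MGLL. Part of the level range may therefore be technical, most of all for MGLL. The level range was larger than the ratio range for 6 of the 13 member probes, against 39.1% of all tested probes, so by this count the members were near the background. The level range itself had a median of 0.63 for the members' brightest probes, against 0.42 for the brightest probes of all genes. A pool pair and its position on the slides cannot be told apart, since each pair lay at the same array number on both slides.

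**Figure D4:**
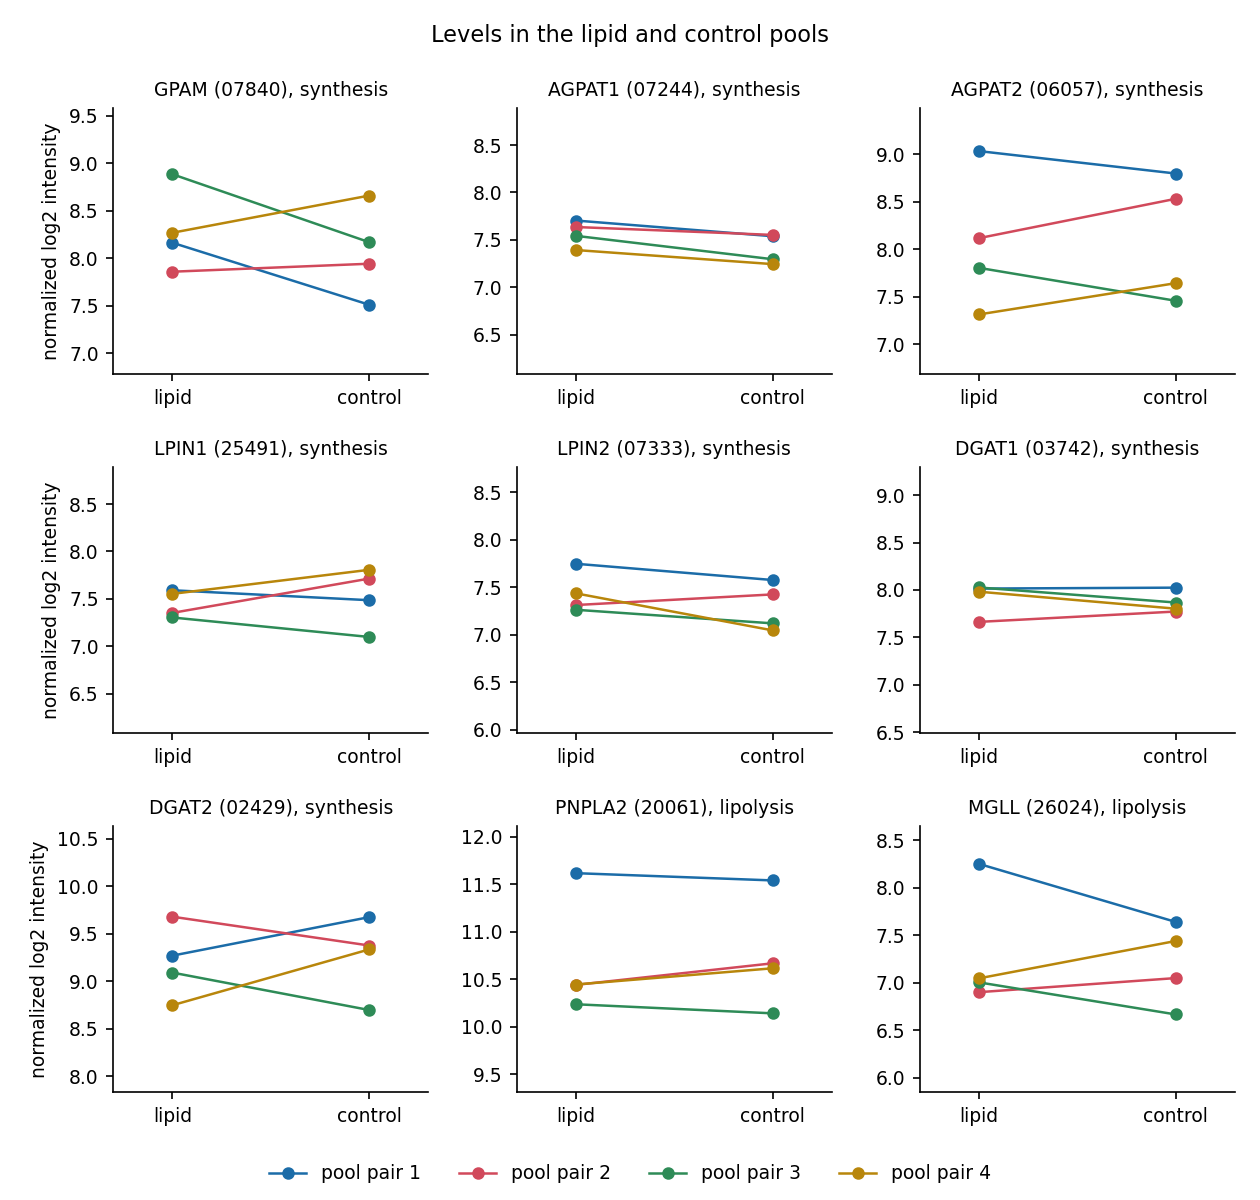
Normalized log2 intensity in the lipid (left) and control (right) pools for the brightest tested probe of each of 9 genes, with lines joining the pools of a pair; every panel spans the same number of log2 units. Lines for PNPLA2 run nearly flat with pair 1 at 11.61 and 11.54, while those of GPAM and DGAT2 cross.

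The builders and the breakers were then set side by side, each gene through its brightest tested probe. Of 7 synthesis genes 4 had a mean log2 ratio above 0, with a median of 0.05. Of the 2 measured lipases, MGLL was above 0 and PNPLA2 below. Over all 12964 genes the median was -0.00045 and 49.8% were above 0. The synthesis genes averaged 0.13, -0.10, 0.32 and -0.12 in pool pairs 1 to 4, and the lipases 0.34, -0.19, 0.22 and -0.28.

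Both groups were above 0 in pool pairs 1 and 3 and below 0 in pool pairs 2 and 4. Their means over the pool pairs were 0.06 ± 0.21 for synthesis and 0.02 ± 0.30 for lipolysis (SD, n = 4). Synthesis minus lipolysis was -0.21, 0.09, 0.10 and 0.16, with a mean of 0.03 ± 0.17 (SD, n = 4), smaller than its spread. It was 0.10 within slide 87, -0.03 within slide 88 and 0.02 without pool pair 2. No p was computed for these scores, because the members were chosen with earlier results of these data known. The lipolysis side rests on 2 genes. Under a filter that asks for signal above the limit in 1 channel or both on all 8 arrays, MGLL and LPIN2 drop out. The difference is then 0.10, with PNPLA2 the sole lipase.

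**Figure D5:**
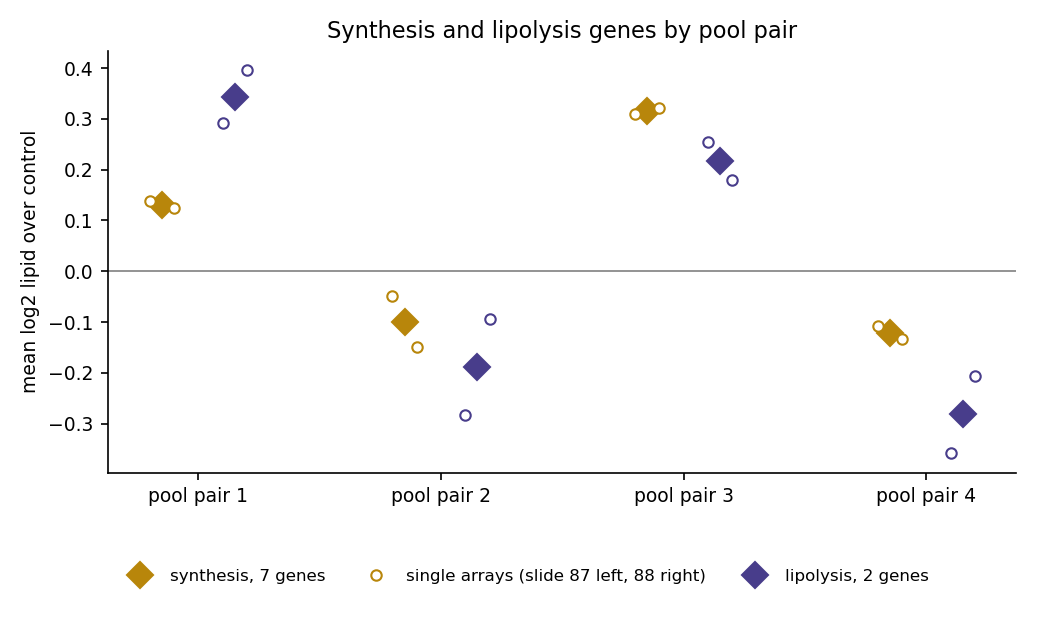
Mean log2 lipid over control of 7 synthesis and 2 lipolysis genes in each pool pair (diamonds) and on its 2 arrays (open circles, slide 87 left and slide 88 right). Both groups lie above 0 in pool pairs 1 and 3 and below 0 in pool pairs 2 and 4, and the arrays of a pair stay on the same side of 0.

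The order above 0 in pool pairs 1 and 3 and below 0 in 2 and 4 was shared by 5 of the 13 probes: GPAM EMBV3_07840, AGPAT2, LPIN1, PNPLA2 and MGLL. Over all tested probes 4.6% had that order. It was singled out after its values were seen, so the count is a description and was not tested. The sign of these ratios thus differed between pool pairs that had the same treatment. Both arrays had the same sign in each of the 4 pool pairs for 6 of the 13 probes, namely GPAM EMBV3_07840, AGPAT2, LPIN2 EMBV3_40813, DGAT1, DGAT2 EMBV3_02429 and MGLL, against 15.2% of all tested probes. For DGAT1 some of these ratios were close to 0, at -0.02 and -0.001 on the arrays of pool pair 1, so the match in sign there does not show a difference.

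Partner genes of both routes were taken from lists. Of 23 backbone, acyltransferase and droplet-forming partners 20 were measured, 8 above 0 and 12 below, with 0 past the threshold in either direction and a median of -0.03. The smallest p belonged to FITM2, which helps lipid droplets form at the endoplasmic reticulum, with log2 ratios of -0.12, -0.33, -0.15 and -0.35 and a mean of -0.24 ± 0.07 (limma unadjusted p = 0.0210, adjusted p = 0.999997). FITM2 was below 0 in all 4 pool pairs, and its other probe averaged -0.13. LPIN3, the third lipin, had a mean of -0.43 ± 0.15 (limma unadjusted p = 0.0292), with -0.22, -0.87, -0.08 and -0.56 in the pool pairs. It passed the detection limit on 2 lipid and 6 control channels. Its lipid channels alone would have missed the 4 arrays the filter asks for, so the filter may favour a ratio below 0. GPAT2, a testis-rich relative of GPAM in mammals, had 0.23 ± 0.09 (limma unadjusted p = 0.0560). It was also near the limit, which it passed on 5 lipid and 2 control channels. Here the control channels alone would have missed the 4 arrays, so the filter may favour a ratio above 0. The direction and p of LPIN3 and GPAT2 are thus not read as a result.

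Of 28 lipolysis partners and other neutral lipases 25 were measured, 15 above 0 and 10 below, with 0 past the threshold in either direction and a median of 0.01. ABHD12, a serine hydrolase of lysophosphatidylserine and monoacylglycerol, had the smallest p, with a mean of -0.18 ± 0.09 (limma unadjusted p = 0.104). Its ratios were 0.10, -0.35, -0.25 and -0.22, and its other probe averaged -0.24. PNPLA4, a relative of PNPLA2, had 0.98, 0.34, -0.47 and 0.93 and a mean of 0.44 ± 0.26 (limma unadjusted p = 0.147). PLIN5, a droplet coat protein that binds PNPLA2 and its activator, had a mean of 0.11 ± 0.07 (limma unadjusted p = 0.169). It was near the limit, passed on 5 lipid and 3 control channels. The control channels alone would have missed the 4 arrays of the filter, which may favour a ratio above 0. None of these named partners passed the threshold.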

How the data were processed

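Intensities of 8 two-colour arrays were read from scanner tables the authors deposited, which hold a mean foreground and a median local background intensity per spot, per the file headers. They were corrected with normexp (offset 50) and normalized by loess within arrays, control spots at weight 0, in limma 3.58.1 under R 4.3.3, and turned to log2 lipid over control. Arrays of the same number are dye swaps: the design text describes pool pairs hybridised both ways, and deviations from the dye orientation means correlated at 0.585 to 0.742 within numbers, against -0.529 to -0.00749 between them. They were averaged to n = 4 pool pairs. Pool levels are log2 intensities after loess and Aquantile.

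A probe was kept if 1 of its channels or both passed a limit, 2 SD over the average of 153 negative control spots, on at least 4 of 8 arrays. Adding the 604 dark corner spots (757 spots) raised the limits of slide 87 array 1 to 958 and 461, where 20.5% of probes passed. That limit was kept as an alternative, chosen after seeing the data. Ratios were tested against 0 with limma (two-sided), Benjamini-Hochberg adjusted, threshold 0.05. In Cy3 the array medians were 230 to 324 for foreground and 19 to 22 for background, and in Cy5 180 to 229 and 36 to 58. The number of arrays and this signal limit the precision.

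A table of log ratios processed by the authors was deposited too, and was taken as log2. The submitters' processing notes name limma. Set against the scanner values, each column ran as lipid over control (correlation 0.950 to 0.980, slope 0.827 to 0.889, medians -0.0261 to 0.0193). How it was background-corrected and normalized, and its log base, remain unknown. It served as an alternative.

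Members and lists were chosen with earlier results of these data known. Named are all members with every probe and, of each pathway list, genes past the threshold plus the 3 of smallest p. Probe names come from the platform annotation, in which 21790 probes have 1 symbol and 22004 none. List genes were matched by current, older or synonymous symbol, and IFNT2 shared the IFNT probe. Alternatives changed the replicate block, slide, background, normalization, scaling, filter, values, variance prior and pool pairs.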

Additional observations from a re-analysis of the deposited data

Results flagged for a closer look

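Sets of 4 pool pair values were searched for a pair far from the other three, in 51 sets covering the member ratios and levels, the scores and the list medians. In 5 sets 1 pool pair stood apart, and chance alone gives about 1 set in 20.

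In the lipid pools, the level of DGAT1 was 7.66 (log2) in pool pair 2, against 7.98 to 8.03 in the others. The level of PNPLA2 EMBV3_20061 was 11.61 in lipid pool 1, against 10.23 to 10.44, and control pool 1 was also high at 11.54. The level of MGLL EMBV3_26024 was 8.25 in lipid pool 1, against 6.90 to 7.05. The median log2 ratio of the backbone, acyltransferase and droplet-forming partners was 0.0929 in pool pair 1, against -0.0983 to -0.0824. The median ratio of the cumulus and granulosa markers was 0.97 in pool pair 2, against -0.03 to 0.13.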

How the results depend on the processing

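No member probe passed the threshold under any alternative, in 216 values with a lowest limma adjusted p of 0.506. The count of probes past it over the whole array was 0 under every alternative except 7 with no replicate block (8 arrays as independent). With the replicate block as a random effect and a dye term for each slide it was 0, at a block correlation of 0.454. Probes with an unadjusted p under 0.05 numbered 1461, and 2592 with no replicate block, 2761 with the random block, 3198 on slide 88 alone, 192 with a trend and robust prior, and 1035 to 2588 with 1 pool pair left out, highest without pool pair 1. Other alternatives gave 1156 to 1770.

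Of the 216 member values 11 changed sign, in 6 probes whose means over the 4 pool pairs lay between -0.08 and 0.10. DGAT2 EMBV3_02429 was 0.0829 on slide 87 alone, PNPLA2 EMBV3_20061 was 0.0194 on slide 88 alone, and AGPAT2 was 0.0119 with median centring. With 1 pool pair left out, the ranges were -0.169 to 0.0845 for AGPAT2, -0.230 to 0.0973 for DGAT2 EMBV3_02429, -0.0110 to 0.0615 for DGAT2 EMBV3_40270, -0.170 to 0.0188 for LPIN1, -0.107 to 0.000415 for PNPLA2 and -0.0681 to 0.267 for MGLL. The other 7 probes kept their sign, 6 of them above 0. For AGPAT1, at 0.07 to 0.25, the unadjusted p was 0.0330 to 0.292 over 17 alternatives and under 0.05 in 4. It was under 0.05 in 3 alternatives for GPAM EMBV3_16039 and in 1 each for GPAM EMBV3_43206 and LPIN2 EMBV3_40813. Synthesis minus lipolysis ranged from -0.03 (slide 88) to 0.12 (without pool pair 1) and was -0.008 without pool pair 4. It was 0.01 with the mean over the probes of a gene. A filter of signal above the limit in 1 channel or both on all 8 arrays gave a score of 0.0979. It left out MGLL, both LPIN2 probes and GPAM EMBV3_16039. The limit with dark corner spots left out MGLL and gave 0.113. The causes were not tested. Signal over background limits what could be seen, with median lipid signals of 1.05 times the limit for GPAM EMBV3_16039 and 0.947 times for MGLL EMBV3_26024.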
